A study of Homo sapiens and Mus musculus with 36 samples.

Results

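Huh7 is a human hepatocellular carcinoma cell line. The libraries described here are the 4 of the study's 36 in which EZH2 was depleted from Huh7 by a short hairpin RNA, or in which Huh7 carried the matching control. In the shEZH2 group (2 libraries) cells had been infected with a pLKO.1-puro lentivirus expressing a hairpin against EZH2. In the shControl group (2 libraries) they had received the same vector, named a scramble control in one label and an empty vector in another. Puromycin selection was applied to both groups. The hairpin sequence, the number of hairpins and the time between infection and harvest are not stated in the sources used, so off-target effects of a hairpin and effects of lower EZH2 cannot be told apart. Whether the libraries come from independent cultures is not stated in the labels, and the p-values therefore measure the spread between these libraries, which may be technical. Estimated counts summed to 11240538 and 11954322 in the shEZH2 libraries and to 11300070 and 10106193 in the shControl libraries. Of 15208 rows with gene names, 14581 passed a filter on low counts and were tested. Levels are given as normalized counts, which are estimated counts scaled to a common library size. They depend on transcript length and are compared here between libraries, never between genes.

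EZH2 is the methyltransferase subunit of Polycomb repressive complex 2 (PRC2), which places the H3K27me3 mark on the chromatin of silenced genes. EED and SUZ12 are needed for its activity, EZH1 is a paralog of EZH2, and the complex is best known for keeping developmental genes such as the HOX clusters silent. The study also followed SREBP2, the product of SREBF2. When cell sterols are low this transcription factor leaves the endoplasmic reticulum, is cleaved in the Golgi and turns on genes of cholesterol synthesis and uptake, a pathway very active in hepatocytes. The question for these libraries was which transcripts moved when EZH2 was depleted by RNA interference, without a compound.

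EZH2 mRNA (chromosome 7, 148807383 to 148884321, minus strand, GRCh38) stood at 148 and 156 normalized counts in the shEZH2 libraries, against 921 and 999.5 in the shControl libraries. The groups did not overlap (68.6% of all genes tested had groups that did not overlap), and the shEZH2 libraries held 15.8% of the control level. Its log2 fold change (shEZH2 over shControl) was -2.65 (SE 0.08, edgeR adjusted p = 3.03e-13), so the targeted gene matched the labels. The other catalytic subunit, EZH1, had 75.7 and 64.9 normalized counts in the shEZH2 libraries, against 57.6 and 64.6 in the shControl libraries, and at 0.20 (SE 0.19, edgeR adjusted p = 0.426) it was not called. SUZ12 stood at 1139 and 1151 with shEZH2 and 1142 and 1159.8 with shControl and EED at 366 and 352 with shEZH2 and 417 and 352 with shControl, and neither was called. RBBP4, a histone-binding subunit, rose by 0.31 (SE 0.03, edgeR adjusted p = 6.83e-07) on the log2 scale, with 3015 and 2985 with shEZH2 and 2411 and 2412 with shControl. RBBP7, its close relative, was at 0.14 (SE 0.04, edgeR adjusted p = 0.0135), and DESeq2 did not call it. Thus 1 core subunit of 6 fell and 2 rose. Over all genes tested, 19.5% rose and 19.3% fell at an adjusted p under 0.05. "Rose" and "fell" are used below for genes that passed this threshold, and counts over gene lists are to be read beside these shares. Wherever groups are said below to be apart or not to overlap, the 68.6% of all genes tested is the share to set beside it.

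Of 7 accessory subunits measured, which steer PRC2 to chromatin or tune its activity, 4 rose and none fell. PHF19 had 751 and 679 normalized counts in the shEZH2 libraries, against 568 and 516 in the shControl libraries, at 0.39 (SE 0.07, edgeR adjusted p = 2.04e-04). JARID2, AEBP2 and MTF2 followed at 0.35 (SE 0.08), 0.28 (SE 0.07) and 0.22 (SE 0.07). DESeq2 did not call these 3 genes (adjusted p = 0.10, 0.091 and 0.24), and each lost its edgeR call without at least 1 of the libraries. Every one of the 4 changes was below 1.5-fold. PHF1, LCOR and C17orf96 (EPOP), at log2 fold changes of -0.18, 0.00 and -0.05, were not called. Among 19 subunits of PRC1, the complex that reads H3K27me3, 7 rose and 2 fell. CBX2, a chromodomain subunit, had 796 and 834 with shEZH2 and 556 and 528 with shControl and rose by 0.59 (SE 0.06, edgeR adjusted p = 5.88e-07) on the log2 scale. It was the only PRC1 gene past 1.5-fold in these libraries, and its groups did not overlap. RNF2, the catalytic ubiquitin ligase, was at 0.54 (SE 0.09). Of 6 genes for enzymes that remove or oppose H3K27 methylation, 5 rose. The demethylase KDM6B had 574 and 537 with shEZH2 and 376 and 396 with shControl, at 0.53 (SE 0.07, edgeR adjusted p = 1.53e-05), while its relative KDM6A stood at -0.08 and was not called.

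**Figure D1:**
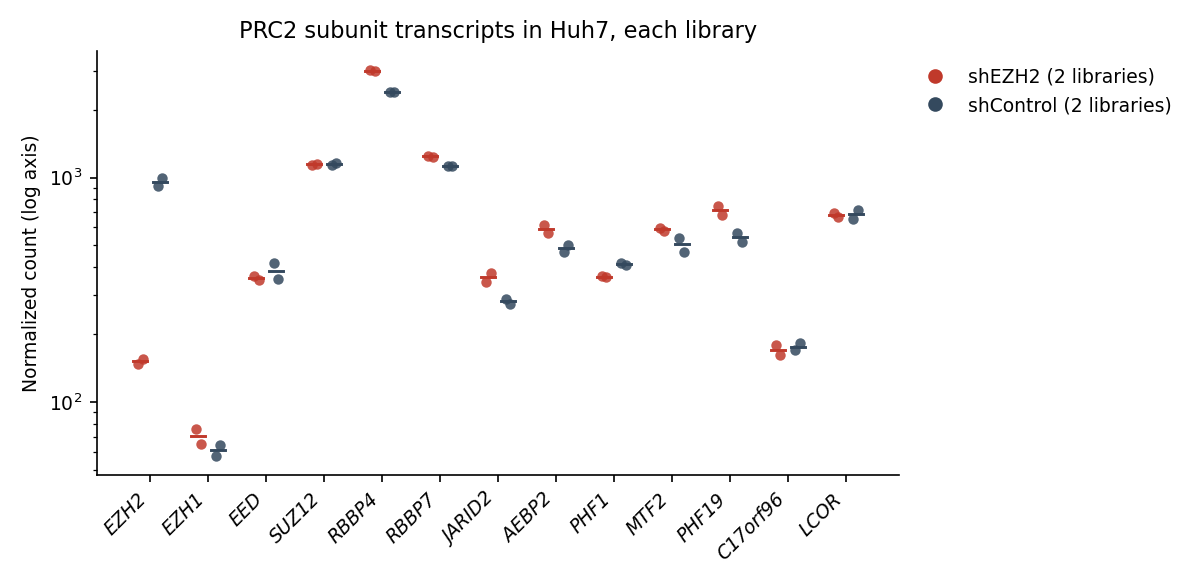
Normalized counts (log axis) of 6 core and 7 accessory PRC2 subunits in each library, with shEZH2 left of shControl and short bars at the group means. EZH2 stands apart, at 148 and 156 with shEZH2 and 921 and 999.5 with shControl. No other subunit changed by 1.5-fold, although RBBP4, RBBP7 and 4 accessory subunits rose.

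Across the transcriptome 2838 genes rose and 2811 fell by edgeR's quasi-likelihood test. DESeq2 on the same counts gave 1455 and 1352, all among those. The authors' deposited table gave 1702 and 1721. Libraries within a group were very alike, with a common biological coefficient of variation of 0.0187, and small changes passed. With a change of at least 1.5-fold also required, 1051 genes (7.21%) rose and 661 (4.53%) fell. At 2-fold or more 839 genes were called (5.75%), of which 611 (4.19%) rose and 228 (1.56%) fell. The share of genes up by 2-fold or more was largest among weakly expressed genes. It was 11.3% of 3292 genes with a mean under 50 normalized counts, against 3.46% down. It was 5.00% of 3123 genes with a mean of 50 to 200, against 1.83% down. Among 2581 genes averaging 1000 or more, 13 rose and 13 fell by that much. In 10 genes both shEZH2 libraries stood at 100 or more and both shControl libraries under 25, and no gene showed the opposite. These were HEPACAM2, MUC12, PCDH7, PRKAR2B, IFITM2, PAK7, PRDM1, CLIC6, PNMA3 and SLC39A4, a list read from their values. PCDH7, a protocadherin of the cell surface, had 167 and 194 normalized counts with shEZH2 and 18.9 and 13.4 with shControl. PRDM1, a transcriptional repressor known from B-cell and germ-cell development, had 103 and 134 with shEZH2 and 13.9 and 17.8 with shControl. For both genes the separation of the groups follows from how the list was chosen.

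**Figure D2:**
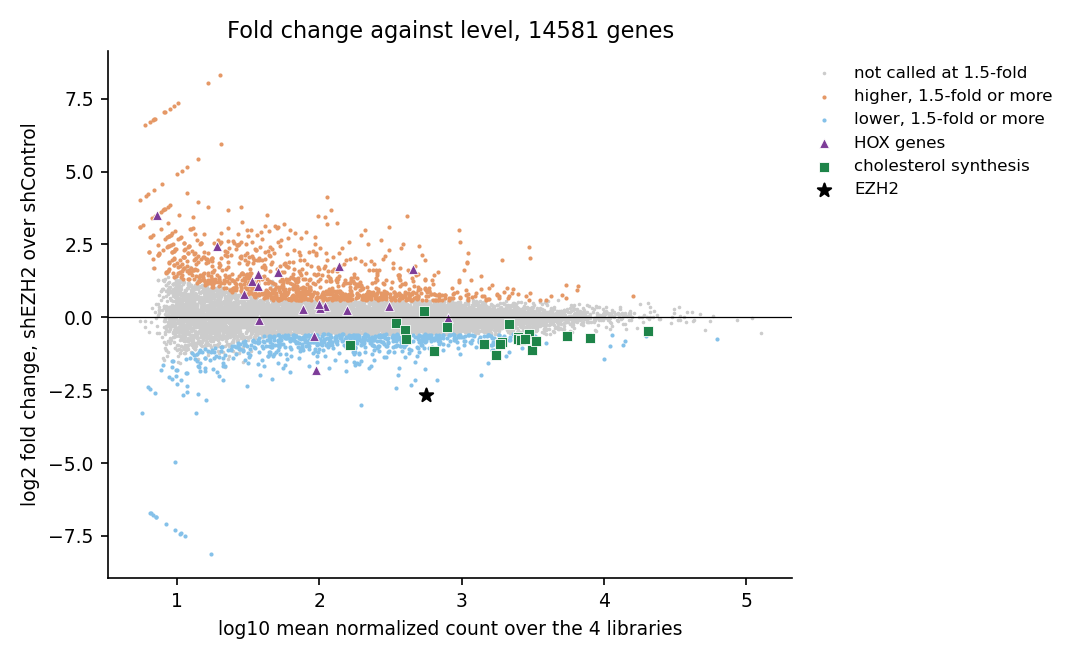
Log2 fold change of shEZH2 over shControl against log10 mean normalized count for 14581 genes; orange and light blue points passed an adjusted p of 0.05 with at least 1.5-fold, and HOX genes, cholesterol synthesis genes and EZH2 are marked. Large increases gather at low means, and cholesterol synthesis genes lie mostly below 0 at means over 100.

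The 12 highest log2 fold changes among called genes averaging 100 or more normalized counts belonged to genes of varied roles. HEPACAM2, an immunoglobulin-family membrane protein, had 230.0 and 197 normalized counts in the shEZH2 libraries, against 11.9 and 12.2 in the shControl libraries, at 4.13 (SE 0.20, edgeR adjusted p = 1.51e-10). SLPI, a secreted inhibitor of leukocyte proteases, had 762 and 741 with shEZH2 and 54.7 and 80.1 with shControl, at 3.49 (SE 0.11, edgeR adjusted p = 6.04e-13). CES1, the main carboxylesterase of liver, had 1714 and 1697 with shEZH2 and 204 and 227 with shControl, at 2.99 (SE 0.06, edgeR adjusted p = 5.20e-15). In each case the lowest shEZH2 library was several times the highest shControl library. COL1A2, a chain of type I collagen, had 507 and 597 with shEZH2 and 66.6 and 63.5 with shControl, at 3.08 (SE 0.12, edgeR adjusted p = 1.16e-11). FSTL1, a secreted glycoprotein, had 1704 and 1630.5 with shEZH2 and 273 and 284 with shControl, at 2.58 (SE 0.06, edgeR adjusted p = 1.68e-14). MEST, an imprinted gene expressed from the paternal copy, had 388 and 349 with shEZH2 and 43.7 and 49.0 with shControl, at 2.99 (SE 0.13, edgeR adjusted p = 3.18e-11). All 3 were detected in control cells, and no groups overlapped, as in 68.6% of all genes tested. Genes in this paragraph were picked for large changes, from which such separation follows. The rest of the 12 highest were MUC12, a membrane mucin, PRKAR2B, a regulatory subunit of protein kinase A, and PTPRG, a receptor tyrosine phosphatase, with log2 fold changes of 3.68 (SE 0.17), 3.43 (SE 0.19) and 3.23 (SE 0.17). CA4, a membrane carbonic anhydrase, PRSS3, a trypsinogen, and COL12A1, a fibril-associated collagen, stood at 3.20 (SE 0.18), 2.83 (SE 0.14) and 2.65 (SE 0.10). PRSS3 belongs to a family of near-identical trypsinogen copies among which the authors' counting could split reads.

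EZH2 itself was among the 12 lowest log2 fold changes, and the others were of varied roles. AFM, the vitamin E carrier afamin, had 41.3 and 45.4 normalized counts in the shEZH2 libraries, against 351 and 348 in the shControl libraries, at -3.01 (SE 0.12, edgeR adjusted p = 1.57e-11). SERPINC1, the plasma inhibitor antithrombin, had 143 and 149 with shEZH2 and 735 and 727 with shControl, at -2.32 (SE 0.08, edgeR adjusted p = 1.43e-12). For neither gene did the groups overlap, which follows from picking large changes. ACSS2, which makes acetyl-CoA from acetate, had 101 and 115 with shEZH2 and 571 and 601 with shControl, at -2.43 (SE 0.09, edgeR adjusted p = 6.98e-12). SNX2, a sorting nexin of endosomes, had 174 and 169.7 with shEZH2 and 812 and 728 with shControl, at -2.17 (SE 0.08, edgeR adjusted p = 7.90e-12). FGL1, a liver-secreted fibrinogen-like protein, had 249 and 243 with shEZH2 and 1082 and 1123 with shControl, at -2.16 (SE 0.06, edgeR adjusted p = 2.65e-13). The shEZH2 libraries held 18.4% of the control level of ACSS2 and 22.3% of that of SNX2 and of FGL1. GJB1, the liver gap junction protein connexin 32, HABP2, a plasma serine protease, and PALMD, palmdelphin, stood at -1.98 (SE 0.09), -1.97 (SE 0.05) and -1.75 (SE 0.08). SOAT2 was also among the lowest and is described with the sterol genes.

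**Figure D3:**
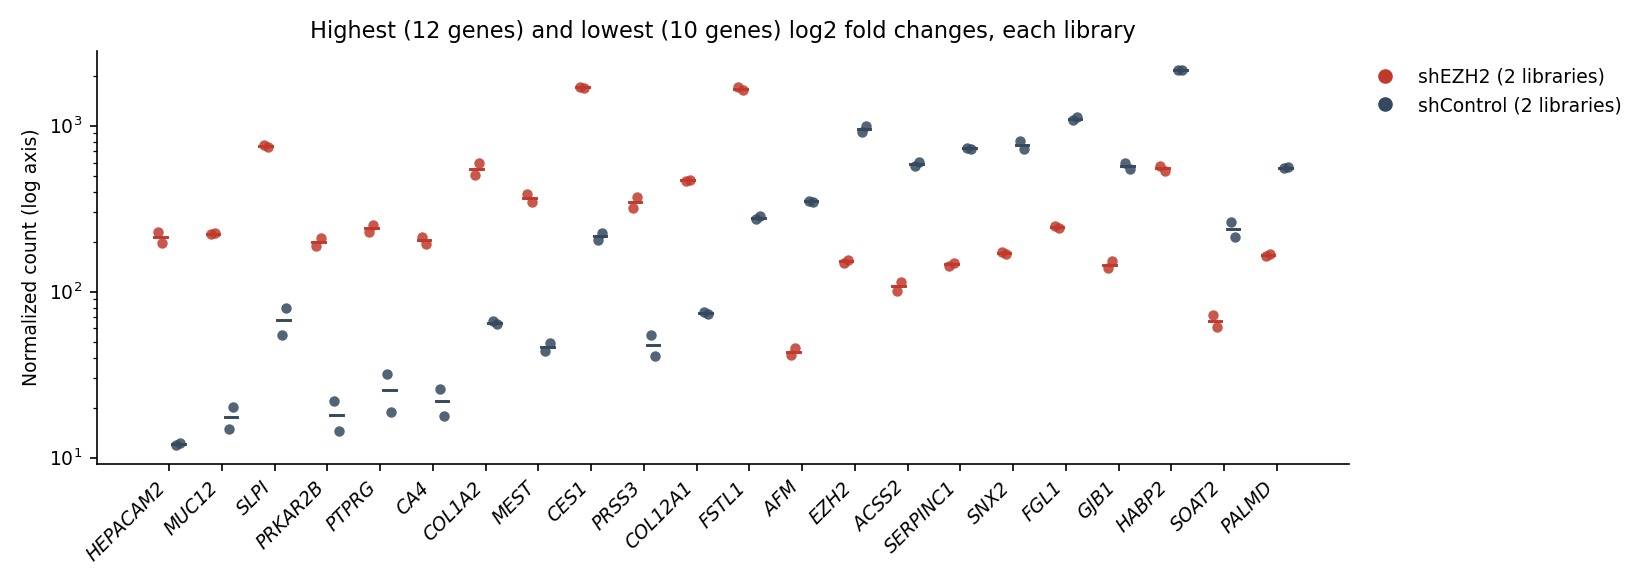
Normalized counts (log axis) of the 12 genes with the highest and of 10 of the 12 with the lowest log2 fold changes among called genes averaging 100 or more, each library a point, shEZH2 left of shControl, bars at group means. The genes were picked for large changes, and none drawn has overlapping groups. HEPACAM2 stands at 230.0 and 197 with shEZH2 and 11.9 and 12.2 with shControl.

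HOX genes, the homeobox transcription factors that pattern the body axis and textbook targets of PRC2, were partly higher with shEZH2. Of 39 HOX genes listed, 20 had a row in the table and 19 were tested, 12 of which rose and 2 fell. The median log2 fold change was 0.46, beside 0.00 over all genes. With 1 library left out the median lay between 0.57 and 0.74, the highest value being that without shControl replicate 2. The filter on low counts was rerun in those fits and then asks for only 1 library, so further weakly expressed HOX genes can enter. Those medians are therefore not for the same set of genes as 0.46 and do not measure its stability. At 1.5-fold or more, 9 rose and 2 fell. The count of 9 was 5 in the authors' deposited table, and it was 3 under a minimum mean of 50 normalized counts, which tests fewer weakly expressed genes. HOXD1 had 703 and 671 normalized counts in the shEZH2 libraries, against 207 and 229 in the shControl libraries, at 1.66 (SE 0.08, edgeR adjusted p = 7.35e-11). HOXC6 had 220.2 and 205 with shEZH2 and 69.6 and 55.6 with shControl, at 1.75 (SE 0.14, edgeR adjusted p = 4.07e-08). Both genes were detected in control cells, and both shEZH2 libraries were far above them. HOXC8 had 58.0 and 51.9 with shEZH2 and 21.9 and 16.7 with shControl, at 1.5 (SE 0.27, edgeR adjusted p = 3.96e-04). HOXC12 had 32.4 and 31.5 with shEZH2 and 3.98 and 7.79 with shControl, at 2.44 (SE 0.43, edgeR adjusted p = 2.98e-04). HOXC11 stood at 1.56 (SE 0.27), between 1.19 and 1.84 when 1 library was left out. HOXD4 came near 0 in the controls, with 12.8 and 13.9 with shEZH2 and 1.99 and 0 with shControl, and its fitted value depends on the prior count. HOXC12 and HOXD4 passed the filter on low counts only through the shEZH2 libraries, so they could enter only as increases. The counts of 12 and 9 and the median include them. Movement was not in 1 direction across the clusters. HOXA5 stood at -0.63 (SE 0.15, edgeR adjusted p = 0.00351), which DESeq2 did not call (adjusted p = 0.12). HOXC10 had 788 and 806 with shEZH2 and 795 and 821 with shControl and was not called, at -0.02 (SE 0.05). HOXC4, HOXC9, HOXC13 and HOXA9 were not called either. The remaining members with an edgeR call were HOXA3 at 0.38, HOXA4 at 0.80, HOXA7 at 0.37, HOXA10 at 0.46, HOXA11 at 1.24 and HOXA13 at 1.08. DESeq2 called none of these 6 (adjusted p of 0.073 to 0.40). With 1 library left out HOXA10 lay between 0.34 and 0.58 and HOXA11 between 0.83 and 1.55.

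Genes known to be silenced by PRC2 in other cells or tumours moved in both directions. Of 40 listed, 29 were tested, 12 rose and 7 fell, and at 1.5-fold or more 8 rose and 2 fell, beside the 7.21% and 4.53% of all genes. DESeq2 and the authors' deposited table each gave 4 higher at 1.5-fold. TIMP2, an inhibitor of matrix metalloproteinases, had 647 and 673 normalized counts in the shEZH2 libraries, against 110.3 and 119 in the shControl libraries, at 2.53 (SE 0.09, edgeR adjusted p = 2.04e-12). Its relative TIMP3 had 879.9 and 868 with shEZH2 and 525 and 489 with shControl, at 0.78 (SE 0.06, edgeR adjusted p = 1.85e-08). The groups of both genes were apart. RARRES1, a retinoid-responsive membrane protein, had 124 and 114 with shEZH2 and 52.7 and 45.6 with shControl, at 1.27 (SE 0.17, edgeR adjusted p = 1.76e-05), and PPP2R2B, a regulatory subunit of protein phosphatase 2A, had 90.4 and 93.7 with shEZH2 and 16.9 and 12.2 with shControl, at 2.64 (SE 0.25, edgeR adjusted p = 3.73e-07). IGFBP3, a carrier of insulin-like growth factors, rose less, at 0.32 (SE 0.05, edgeR adjusted p = 1.09e-04). CDH1, the epithelial cadherin and a reported EZH2 target, had 860.2 and 805 with shEZH2 and 1684 and 1701 with shControl and fell, at -1.02 (SE 0.04, edgeR adjusted p = 5.08e-11). RASSF1 stood at -0.61 (DESeq2 adjusted p = 0.054), and GATA4, a transcription factor of the liver and gut, fell, at -0.55 (SE 0.04, edgeR adjusted p = 1.53e-08). CDKN2A, the locus of p16 and p14ARF, had 747 and 733 with shEZH2 and 751 and 659 with shControl, and at 0.06 (SE 0.06, edgeR adjusted p = 0.445) it was not called. CDKN1C, the inhibitor p57, had only 24.6 and 19.5 with shEZH2 and 6.96 and 3.34 with shControl. It passed the filter on low counts only through the shEZH2 libraries, so it could enter only as an increase. Its value of 2.04 (SE 0.49, edgeR adjusted p = 0.00336) lay between 1.64 and 2.67 with 1 library left out and was not called by DESeq2 (adjusted p = 0.058).

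Transcripts on a joint list of biliary and liver progenitor markers rose more often than they fell, 9 against 3 of 17 tested. Their median was 0.34. Over all genes tested, 19.5% rose and 19.3% fell. A separate list of 7 cholangiocyte markers had 2 higher and 3 lower, so the joint count does not describe biliary markers alone. PROM1, which encodes the surface antigen CD133, had 3041 and 3014 normalized counts in the shEZH2 libraries, against 775 and 776 in the shControl libraries, at 1.96 (SE 0.04, edgeR adjusted p = 5.00e-15). LGR5, a receptor for R-spondins on stem cells, had 332 and 379 with shEZH2 and 112 and 121 with shControl, at 1.61 (SE 0.11, edgeR adjusted p = 6.27e-09). SPP1, osteopontin, had 249.7 and 275 with shEZH2 and 101 and 105 with shControl, at 1.35 (SE 0.11, edgeR adjusted p = 7.72e-08). For each of the 3, both shEZH2 libraries lay above both controls. EPCAM stood at 0.84 (SE 0.08), whereas KRT19, a biliary keratin, had 131 and 137 with shEZH2 and 252 and 268 with shControl and fell, at -0.95 (SE 0.10, edgeR adjusted p = 1.50e-06). AFP, the fetal albumin, fell as well, at -0.74 (SE 0.01, edgeR adjusted p = 5.08e-15). The fetal RNA-binding genes LIN28B, IGF2BP1 and IGF2BP3 were not called, at 0.01, 0.00 and 0.12.

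Of 22 Wnt pathway genes 14 rose and 2 fell, with a median of 0.26. FZD2, a Wnt receptor, had 223 and 207 normalized counts in the shEZH2 libraries, against 59.6 and 69.0 in the shControl libraries, at 1.74 (SE 0.13, edgeR adjusted p = 2.87e-08). FZD7, another receptor, stood at 0.62 (SE 0.07), AXIN1, of the complex that destroys beta-catenin, at 0.48 (SE 0.08), and CTNNB1, beta-catenin itself, at 0.37 (SE 0.02). Transcripts commonly read as Wnt output did not share 1 direction: AXIN2 was not called at 0.25, LEF1 was not called at -0.32, GLUL fell, at -0.13, and SP5 rose, at 0.34. In the insulin-like growth factor axis 9 of 12 genes rose and 2 fell. IRS2, an adaptor below the insulin receptor, had 183 and 153 with shEZH2 and 39.8 and 59.0 with shControl, at 1.78 (SE 0.17, edgeR adjusted p = 6.88e-07). The receptors IGF1R and INSR had log2 fold changes of 0.81 (SE 0.06) and 0.44 (SE 0.05), and the groups of both were apart. The ligand IGF2 had 34742 and 36133 with shEZH2 and 39867 and 40182 with shControl and fell slightly, at -0.18 (SE 0.02, edgeR adjusted p = 1.15e-06).

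Genes of cholesterol synthesis fell almost throughout the pathway. Of 22 enzymes tested, 20 fell, 1 rose and 1 was not called, with a median log2 fold change of -0.75, and 15 fell by at least 1.5-fold (4.53% of all genes did). Among the 9 mevalonate-pathway enzymes 7 fell. HMGCS1, the HMG-CoA synthase, had 6053 and 6017 normalized counts in the shEZH2 libraries, against 9569 and 9971 in the shControl libraries. MVK, mevalonate kinase, had 382 and 406 with shEZH2 and 894 and 853 with shControl, at -1.15 (SE 0.06, edgeR adjusted p = 4.28e-10), and MVD, the decarboxylase that makes isopentenyl pyrophosphate, had 1011 and 1007 with shEZH2 and 2518 and 2415 with shControl. All 3 enzymes were lower in both shEZH2 libraries than in either control. PMVK, phosphomevalonate kinase, was not called at -0.20 (SE 0.08), and GGPS1, which leads from the pathway to protein prenylation, stood at 0.20 (SE 0.07, edgeR adjusted p = 0.0413). DESeq2 did not call GGPS1 (adjusted p = 0.32). All 3 enzymes from squalene to lanosterol fell: FDFT1 at -0.77 (SE 0.03), SQLE at -0.93 (SE 0.04) and LSS at -0.91 (SE 0.04). SQLE, the epoxidase, had 1009.6 and 957 with shEZH2 and 1895 and 1852 with shControl. All 10 enzymes after lanosterol fell, from -1.11 for MSMO1, the methyl sterol oxidase, through -0.75 for CYP51A1 and -0.64 for DHCR7, the last reductase, to -0.24 for LBR. LBR is also a receptor of the nuclear envelope, and its change was the smallest of the 10.

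The promoters of sterol genes are given here because these genes moved together. Sequences come from RefSeq (GRCh38.p14) and were searched on both strands over 250 bases before and 50 after the start for TCACNCCAC, a core of the sterol regulatory element bound by SREBP, and for CCAAT, the core bound by NF-Y, known to act beside SREBP. Capitals mark matches, and ATTGG is CCAAT on the other strand. The windows below lie before the start of SREBF2 (chr22:41832952-41833023, plus strand), HMGCS1 (chr5:43313488-43313587, minus strand), FDPS (chr1:155308670-155308839, plus strand) and INSIG1 (chr7:155297688-155297732, plus strand).
SREBF2: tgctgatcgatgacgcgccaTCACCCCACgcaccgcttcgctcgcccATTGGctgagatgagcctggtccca
HMGCS1: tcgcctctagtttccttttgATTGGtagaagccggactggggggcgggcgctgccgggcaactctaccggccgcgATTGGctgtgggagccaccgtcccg
FDPS: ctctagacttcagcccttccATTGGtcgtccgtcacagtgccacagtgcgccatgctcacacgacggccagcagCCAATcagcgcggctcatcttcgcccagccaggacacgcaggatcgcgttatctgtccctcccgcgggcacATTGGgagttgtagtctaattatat
INSIG1: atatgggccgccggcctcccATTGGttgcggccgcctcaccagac
In SREBF2 the TCACNCCAC match begins 133 bases before the start and the CCAAT match 106 before it. Of the 22 cholesterol synthesis genes 17 had a promoter in the table used, and CCAAT lay in 12 of them (70.6%), beside 36.9% of 9855 promoters of genes tested. TCACNCCAC lay in 0 of the 17, beside 1.12% of all those promoters. CCAAT lay in 6 of 8 promoters of sterol uptake genes, 6 of 13 of fatty acid synthesis genes and 4 of 16 of coagulation genes. Among the genes that regulate SREBP it lay in 2 of 7 (28.6%), SREBF2 and INSIG1, a share below that of all genes tested. TCACNCCAC lay in 1 of those 7 and in 1 of the 13 fatty acid synthesis promoters. A match describes these letters and does not show that a factor binds there. Only exact matches to TCACNCCAC in this window were sought. A promoter without a match is therefore not shown to lack a sterol regulatory element.

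Of 7 genes that regulate SREBP, 5 fell and 1 rose. SREBF2 had 1877 and 1753 normalized counts in the shEZH2 libraries, against 2581 and 2570.1 in the shControl libraries, at -0.51 (SE 0.04, edgeR adjusted p = 2.39e-08). SREBF1, which encodes the lipogenic SREBP1, had 1169.9 and 1193 with shEZH2 and 1495 and 1478 with shControl, at -0.33 (SE 0.04, edgeR adjusted p = 7.79e-06). Both transcripts were lower in each shEZH2 library than in each control. INSIG1 and INSIG2, which retain the SREBP complex in the endoplasmic reticulum, stood at -0.50 (SE 0.04) and -0.70 (SE 0.08). SCAP, the sterol-sensing escort, and MBTPS1, the first protease to cut SREBP, had changes of -0.12 and 0.12 that DESeq2 did not call, and MBTPS2 was not called by either tool. Among 14 genes of sterol uptake and transport 9 fell and 1 rose, and 3 fell by at least 1.5-fold. SOAT2, the liver enzyme that esterifies cholesterol, had 72.8 and 61.2 with shEZH2 and 264 and 215 with shControl, at -1.85 (SE 0.14, edgeR adjusted p = 3.69e-08). STARD4, a carrier of sterols, was at -0.74 (SE 0.06). Both fell well below their controls. SCARB1, the receptor of high-density lipoprotein, rose, at 0.18.

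Fatty acid synthesis had 12 of 15 genes lower and none higher, with a median of -0.27. SCD, the stearoyl-CoA desaturase, had 15358 and 15239 normalized counts in the shEZH2 libraries, against 23563 and 24092 in the shControl libraries, at -0.64 (SE 0.02, edgeR adjusted p = 2.65e-13). FASN, the fatty acid synthase, had 12353 and 12428 with shEZH2 and 16393 and 16199.8 with shControl, at -0.40 (SE 0.02, edgeR adjusted p = 1.23e-10). ELOVL6, an elongase, was at -0.72 (SE 0.05). The groups of all 3 were apart, although only 4 genes of the list, ACSS2, PNPLA3, ELOVL6 and SCD, passed 1.5-fold. ACACA, the acetyl-CoA carboxylase, was not called at -0.09 (SE 0.04). Genes of triglyceride storage and transport were mixed, 4 higher and 8 lower of 19. DGAT2, which completes triglycerides, had 516 and 508 with shEZH2 and 827 and 856 with shControl, at -0.72 (SE 0.06, edgeR adjusted p = 4.12e-08), and PLIN2, a coat protein of lipid droplets, was at -0.36 (SE 0.03). MTTP, which loads lipid onto apolipoprotein B, had 6424 and 6374 with shEZH2 and 3774 and 3681 with shControl and rose, at 0.78 (SE 0.03, edgeR adjusted p = 1.78e-12).

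**Figure D4:**
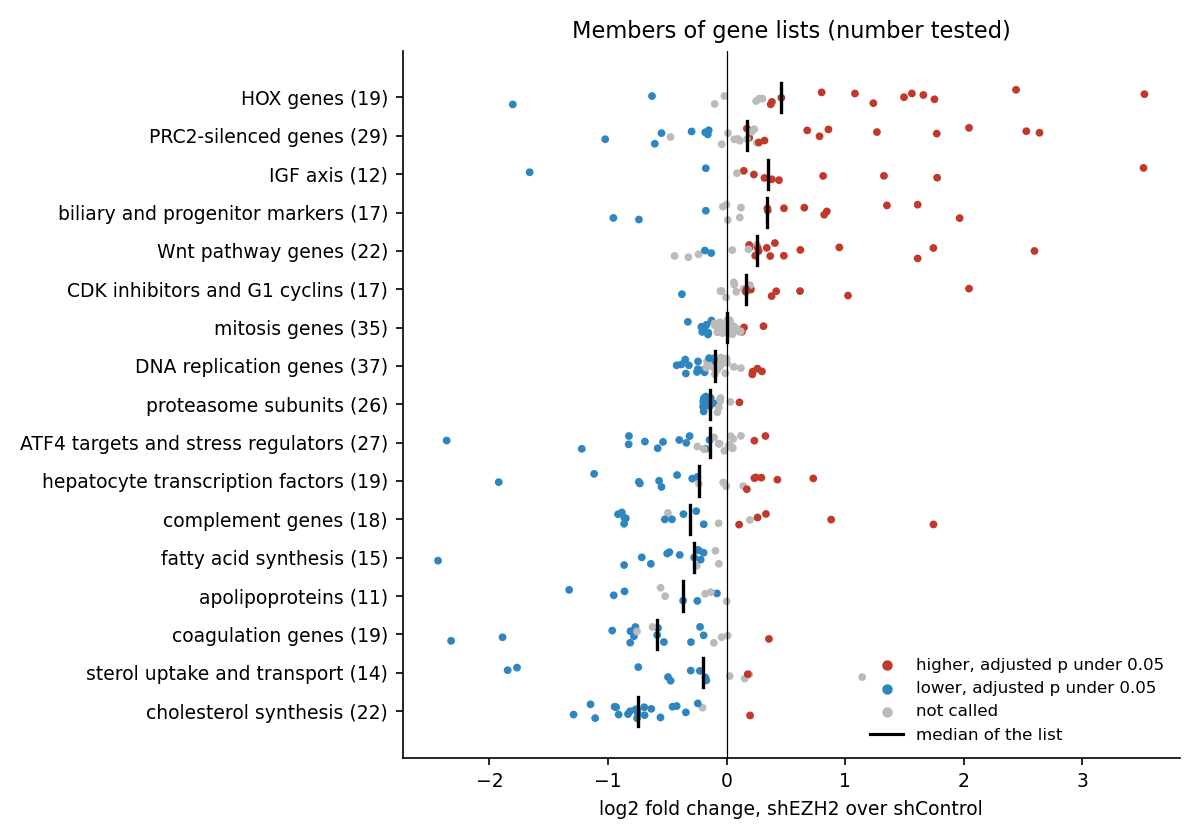
Log2 fold change of shEZH2 over shControl for each tested member of 17 gene lists, one row a list with the number tested in brackets, red and blue for members that rose or fell at an adjusted p under 0.05, grey for members not called, and a bar at the median. Cholesterol synthesis has its median at -0.75 and coagulation genes at -0.59, while HOX genes have theirs at 0.46 with members on both sides of 0.

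Transcripts of proteins that hepatocytes secrete moved unevenly. In bulk RNA, fewer cells of a type and less RNA per cell cannot be told apart. ALB, albumin, had 104783 and 103487 normalized counts in the shEZH2 libraries, against 149208 and 151891 in the shControl libraries, at -0.53 (SE 0.01, edgeR adjusted p = 4.63e-14). AFP had 46439 and 46104 with shEZH2 and 76442 and 78073 with shControl, and GC, the vitamin D carrier, had 5386 and 5483 with shEZH2 and 14509.8 and 14769.5 with shControl, at -1.43 (SE 0.02, edgeR adjusted p = 2.46e-16). Both shEZH2 libraries lay below both controls for each. TTR, transthyretin, went the other way, with 2227 and 2227 with shEZH2 and 1433 and 1382 with shControl, at 0.66 (SE 0.04, edgeR adjusted p = 8.60e-10), as did SERPINA7, the thyroxine carrier, at 0.82 (SE 0.11). In all, 4 of 13 plasma carriers rose and 6 fell. Apolipoproteins had 6 of 11 lower and none higher. APOA2 had 1135 and 1198 with shEZH2 and 2964 and 2896 with shControl, at -1.33 (SE 0.04, edgeR adjusted p = 2.65e-13), and APOE and APOC1 stood at -0.95 (SE 0.02) and -0.86 (SE 0.04). APOA1 fell by less, at -0.25 (SE 0.02, edgeR adjusted p = 1.28e-07). APOB changed by -0.08 (SE 0.02, edgeR adjusted p = 0.00246), which DESeq2 did not call (adjusted p = 0.064).

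Coagulation genes were lower more widely, with 13 of 19 lower, 1 higher and a median of -0.59. At 1.5-fold or more 8 fell (5 by DESeq2). F2, prothrombin, had 912 and 999 normalized counts in the shEZH2 libraries, against 1703 and 1657 in the shControl libraries, at -0.81 (SE 0.05, edgeR adjusted p = 1.27e-09). F5 stood at -0.81 (SE 0.07) and F12 at -0.78 (SE 0.06). With SERPINC1 described above, both clotting factors and a clotting inhibitor were lower. F10 rose, at 0.36 (SE 0.06, edgeR adjusted p = 8.37e-05), and PROS1, protein S, was not called at 0.01. Complement genes had 10 of 18 lower and 5 higher, with CFB at -0.88 (SE 0.07), C1S at -0.86 (SE 0.06) and C4BPA at 0.88 (SE 0.08). C4A and C4B are near-identical copies, and their values of 1.74 and -0.86 are uncertain. Acute-phase genes were split, 7 higher and 7 lower of 17. SERPINA3 had 383 and 331 with shEZH2 and 149 and 146 with shControl, at 1.27 (SE 0.10, edgeR adjusted p = 6.11e-08), while FGA, a fibrinogen chain, had 9118 and 8904 with shEZH2 and 13631 and 14147 with shControl, at -0.62 (SE 0.02, edgeR adjusted p = 5.82e-12). SAA1 and SAA2 stood at 1.96 (SE 0.12) and 1.18 (SE 0.11), and their near-identical sequences make the split between them uncertain.

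Among 19 transcription factors of hepatocytes 6 rose and 9 fell. HNF4A, a central regulator of hepatocyte genes, had 3827 and 3925 normalized counts in the shEZH2 libraries, against 3912 and 3999 in the shControl libraries, at -0.03 (SE 0.03, edgeR adjusted p = 0.463), and was not called. RXRA, the partner of many nuclear receptors, had 1030.3 and 1011 with shEZH2 and 2177 and 2254 with shControl, at -1.12 (SE 0.04, edgeR adjusted p = 4.11e-12). FOXA3 and NR1H4, the bile acid receptor, were at -0.74 (SE 0.06) and -0.57 (SE 0.04). The paired relatives ONECUT1 and ONECUT2 had opposite signs, at -0.73 (SE 0.11) and 0.73 (SE 0.04). With 1 library left out ONECUT1 lay between -0.90 and -0.58. In bile acid metabolism and the urea cycle 2 of 12 genes rose and 6 fell. CPS1, the entry enzyme of the urea cycle, had 84.5 and 101 with shEZH2 and 288 and 278 with shControl, at -1.61 (SE 0.11, edgeR adjusted p = 1.27e-08). ARG1, which ends the cycle, was at -1.10 (SE 0.17), but ASS1, argininosuccinate synthase, had 1353 and 1329 with shEZH2 and 891 and 873 with shControl and rose, at 0.60 (SE 0.04, edgeR adjusted p = 2.32e-08).

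Cell cycle transcripts changed little in size. Of 35 mitosis genes 3 rose and 9 fell, and of 37 DNA replication genes 4 rose and 14 fell, and no member of either list reached 1.5-fold. The shares over all genes tested were 19.5% higher and 19.3% lower. Among CDK inhibitors and G1 regulators 8 of 17 rose and 1 fell. CDKN1A, the inhibitor p21, had 272 and 303 normalized counts in the shEZH2 libraries, against 151 and 131 in the shControl libraries, at 1.02 (SE 0.11, edgeR adjusted p = 1.16e-06). CCNE1, cyclin E1, was at 0.62 (SE 0.10, edgeR adjusted p = 1.14e-04), between 0.50 and 0.76 with 1 library left out. CCND1, cyclin D1, had 3907 and 3891 with shEZH2 and 5007 and 5121 with shControl and fell, at -0.38 (SE 0.03, edgeR adjusted p = 1.42e-08). The p21 transcript was higher in both shEZH2 libraries than in both controls, and cyclin D1 was lower in both. MYC, with 1090.2 and 1151 with shEZH2 and 1042 and 1025 with shControl, was not called, at 0.12 (SE 0.05, edgeR adjusted p = 0.0581).

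Stress transcripts fell more often than they rose. Of 27 ATF4 targets and stress regulators 2 rose and 12 fell, and 5 fell by at least 1.5-fold. ASNS, asparagine synthetase, had 759.9 and 737 normalized counts in the shEZH2 libraries, against 1262 and 1397 in the shControl libraries, at -0.83 (SE 0.05, edgeR adjusted p = 6.16e-09). TRIB3, a pseudokinase induced by ATF4, had 395 and 414 with shEZH2 and 708 and 726 with shControl, at -0.82 (SE 0.06, edgeR adjusted p = 2.70e-08). STC2, stanniocalcin 2, was at -1.22 (SE 0.10). For these 3 genes the groups were apart, whereas ATF4 itself, regulated mainly in translation, stood at -0.18 (SE 0.03, edgeR adjusted p = 2.96e-04). DDIT3, which encodes CHOP, and CHAC1 were not called, at -0.19 and -0.25. Cytosolic aminoacyl-tRNA synthetases had 13 of 16 lower and none higher, and proteasome subunits 18 of 26 lower and 1 higher, with medians of -0.18 and -0.14. No member of either list reached 1.5-fold. Of 20 NRF2 targets 8 rose and 8 fell. NQO1, a quinone reductase, had 1703 and 1749 with shEZH2 and 443 and 482 with shControl, at 1.90 (SE 0.05, edgeR adjusted p = 1.51e-13), while GCLM, a subunit of the enzyme that starts glutathione synthesis, was at -0.48 (SE 0.05) and OSGIN1 at -0.87 (SE 0.08). Of the 13 protein-coding genes of mitochondrial DNA 12 rose and 1 fell, with a median of 0.25, and MT-ND3 was the single member past 1.5-fold.

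The BCL2 family, which sets the threshold for apoptosis, had 5 of 13 genes higher and 4 lower. Over all genes tested 19.5% rose and 19.3% fell. BMF, a BH3-only gene, had 438 and 461 normalized counts in the shEZH2 libraries, against 195 and 196 in the shControl libraries. It rose, at 1.20 (SE 0.08, edgeR adjusted p = 8.74e-09), and BCL2L11 (BIM) was at 0.61 (SE 0.06). BAK1, a pore-forming effector, had 204 and 187 with shEZH2 and 379 and 363 with shControl and fell, at -0.92 (SE 0.09, edgeR adjusted p = 4.16e-07), and BOK was at -0.85 (SE 0.08). The pro-survival genes MCL1 and BCL2L1 were not called, at 0.06 and -0.02. Genes of epithelial and mesenchymal state showed 8 of 25 higher and 10 lower. At 1.5-fold or more 3 rose and 3 fell, and log2 fold changes on the list ran from -1.02 to 1.91. CDH2, neural cadherin, had 3126 and 3151 with shEZH2 and 1837 and 1797 with shControl, at 0.79 (SE 0.03, edgeR adjusted p = 2.49e-11), opposite in sign to CDH1. Of the mesenchymal genes, FN1 and SPARC fell, at -0.45 (SE 0.01) and -0.97 (SE 0.08), and VIM was at 0.11 (SE 0.03). ZEB1 and SNAI1 were not called.

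Markers of the labelled cell type were all present: 10 of 10 hepatocyte markers were tested, and their summed level was 277581 and 275244 normalized counts in the shEZH2 libraries and 356107 and 362272 in the shControl libraries. Of 10 fibroblast and stellate markers 5 had a row, summing to 1056 and 1148 with shEZH2 and 332 and 397 with shControl. COL1A1, DCN, ACTA2, THY1 and POSTN had none. Of the 5, COL1A2, LUM, PDGFRA and PDGFRB rose and COL3A1 was not called, beside the COL1A2 result above. One endothelial marker of 10 had a row, PECAM1, with 31.5 and 18.6 normalized counts with shEZH2 and 51.7 and 73.5 with shControl. Blood and immune markers with a row numbered 5 of 10, summing to 8225 and 8280 with shEZH2 and 9417 and 9278 with shControl, most of it from LYZ. PTPRC, the defining leukocyte antigen CD45, had 16.7 and 13.9 with shEZH2 and 13.9 and 12.2 with shControl. The part of other cell types in the results was not tested.

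MS7126 is the study's EZH2 PROTAC, a molecule that brings EZH2 to a ubiquitin ligase for degradation. MS7126 at 5 uM or DMSO was given to Huh7 cells (2 libraries each) for 24 h, by the label of those samples, while a label elsewhere in the series gives another time. The hairpin and the compound share no library, so their log2 fold changes were compared directly, using the authors' deposited tables for both. The direction of the MS7126 values rests on the series' description. Agent, time and vehicle all differ between the pairs of groups, and the source of a difference cannot be told apart. Of 14547 genes, the shEZH2 value was higher than the MS7126 value in 2255 (15.5%) and lower in 2350 (16.2%) at an adjusted p under 0.05. In the authors' deposited tables EZH2 mRNA stood at -2.66 (SE 0.12) with shEZH2 and -0.46 (SE 0.13) with MS7126. MS7126 acts on the protein, so its mRNA value does not measure how far EZH2 was depleted.

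Cholesterol synthesis was lower in both settings. By the authors' deposited tables, of 22 genes, 20 fell with shEZH2 and 21 with MS7126, at medians of -0.75 and -1.15. The shEZH2 value was higher, closer to 0, for 10 of the 22 and lower for none. HMGCS1 stood at -0.70 (SE 0.03) with shEZH2 and -1.57 (SE 0.15) with MS7126 in the authors' deposited tables, a difference of 0.88 (SE 0.15, adjusted p = 1.13e-07). For MVD the 95% interval of the difference was -0.25 to 0.25, and for SREBF2 -0.38 to 0.14.

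Stress genes separated the 2 settings. Of 27 ATF4 targets and stress regulators 1 rose and 12 fell with shEZH2 in the authors' deposited table, and 23 rose and 2 fell with MS7126, and the difference was negative and called for 22. ASNS stood at -0.83 (SE 0.08) with shEZH2 and 2.39 (SE 0.15) with MS7126 in the authors' deposited tables, a difference of -3.22 (SE 0.17, adjusted p = 7.15e-81). Of 17 immediate early genes 2 rose and 7 fell with shEZH2 and 15 rose and 1 fell with MS7126, and the difference was called negative for 13 and positive for 1. Of 37 DNA replication genes 9 fell with shEZH2 and 30 with MS7126, and the difference was positive for 28. Aminoacyl-tRNA synthetases had none higher with shEZH2 and 12 of 16 higher with MS7126, and the difference was negative for 14 and positive for 1.

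Several genes that rose with the hairpin were not called with the compound. In the authors' deposited tables TIMP2 stood at 2.53 (SE 0.14) with shEZH2 and -0.17 (SE 0.21) with MS7126, a difference of 2.70 (SE 0.26, adjusted p = 5.56e-24). PROM1 stood at 1.96 (SE 0.06) and 0.13 (SE 0.16) in the authors' deposited tables, and COL1A2 at 3.08 (SE 0.18) and -0.39 (SE 0.46), and both differences were called. HOXD1 and HOXC6 had differences of 2.36 (SE 0.63, adjusted p = 0.00101) and 2.68 (SE 0.58, adjusted p = 3.65e-05). Over 17 HOX genes in both of the authors' deposited tables the medians were 0.38 with shEZH2 and -0.52 with MS7126, and the difference was called positive for 5 and negative for 1. Other genes did not separate the settings. LGR5 stood at 1.61 (SE 0.17) and 1.22 (SE 0.23) in the authors' deposited tables, CDKN1A at 1.02 (SE 0.17) and 1.09 (SE 0.34), and AFM at -3.01 (SE 0.21) and -2.54 (SE 0.26), with 95% intervals of the difference of -0.18 to 0.95, -0.80 to 0.67 and -1.13 to 0.18.

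**Figure D5:**
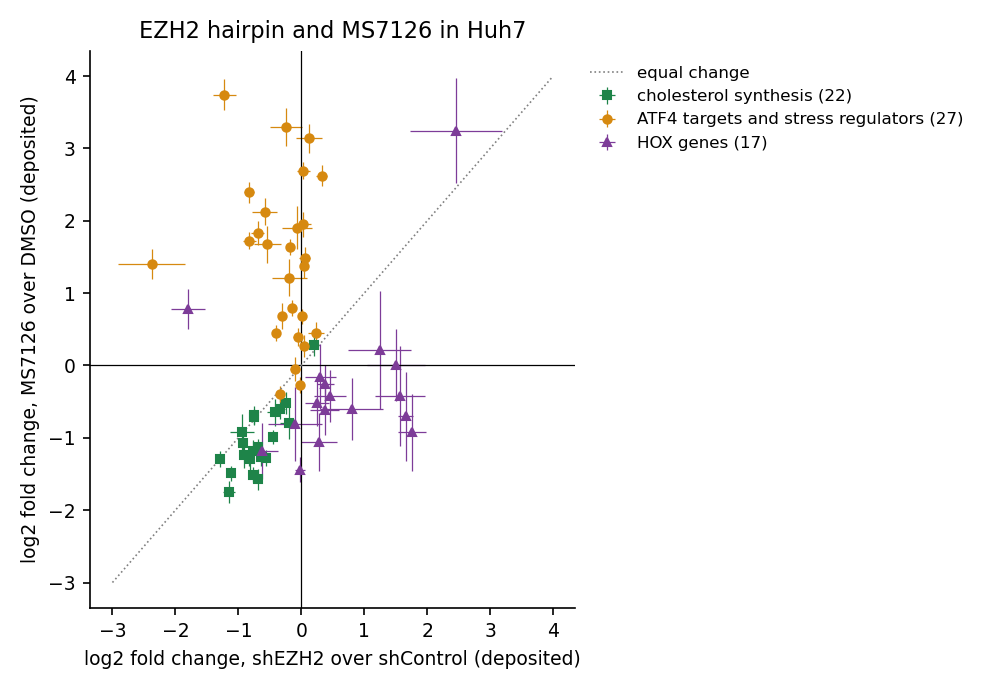
Log2 fold changes in Huh7 from the authors' deposited tables, shEZH2 over shControl on the horizontal axis and MS7126 over DMSO on the vertical axis, with standard errors as bars and a dotted line where they are equal. Cholesterol synthesis genes lie in the lower left except GGPS1, which is above 0 on both axes, ATF4 targets rise along the vertical axis (median -0.14 on the horizontal axis and 1.48 on the vertical one), and most HOX genes lie to the right of 0.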

How the data were processed

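Groups of the 4 Huh7 libraries were taken from the sample titles. Per the submitters' processing notes the tools were STAR 2.4.2 and Salmon with GRCh38. Strand, filters and the kit used for each library (TruSeq v2 or NEBNext Ultra II, per the labels' protocols) are not stated in the sources used, so reads of a gene and its antisense partner cannot be told apart. The deposited table holds the authors' estimated counts per library, which need not be whole. Per the file headers, the authors' comparison tables give a mean normalized signal, a log2 fold change and its standard error, with raw and adjusted p-values, laid out as DESeq2 writes them. Of 15228 rows, 20 were left out because a date stood where the gene symbol should be.

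Estimated counts were rounded and tested with edgeR 4.0.16 (R 4.3.3, TMM normalization, filterByExpr, quasi-likelihood test, no block), with Benjamini-Hochberg adjustment over 14581 genes. SE is the absolute log2 fold change divided by the square root of F. Alternatives included DESeq2 1.42.0. Libraries within a group had a chi-square of 1.47 (shEZH2) and 1.5 (shControl) for each degree of freedom, against 17.9 between shEZH2 replicate 1 and shControl replicate 1. The difference from MS7126 divides the difference of the authors' deposited log2 fold changes by the root of their summed squared standard errors. In simulated counts of the hairpin comparison (14310 genes), edgeR found 92 of 101 genes set to change by 2-fold and 99 of 99 set to 4-fold, and 19 of its 210 calls were false, more than the nominal share. The difference step on 14547 genes found 200 of 200 genes set to 4-fold, with 6 false calls. Recovery of smaller changes was not tested in that step, and the 200 genes do not stand for all 14547.

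The members and the 54 gene lists were chosen with earlier results of these data known, so counts over lists are descriptions. Genes named were EZH2, the 12 highest and 12 lowest log2 fold changes among called genes averaging 100 or more normalized counts, up to 4 called members of each list with the largest change at that mean, all measured members of the PRC2, cholesterol synthesis, SREBP and HOX lists, and 20 fixed names. Some of these genes are not reported here, and further genes were chosen after their values were seen.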

Additional observations from a re-analysis of the deposited data

How the results depend on the processing

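EZH2 was called lower under every setting tried, and the named genes with an edgeR call kept their direction in all of them. DESeq2 on the same counts gave 1455 higher and 1352 lower genes, 687 higher at 1.5-fold or more and 149 lower at 2-fold or more, with 5 coagulation genes lower and 4 PRC2-silenced genes higher at 1.5-fold. The authors' deposited table gave 1702 higher and 1721 lower, 389 and 151 at 2-fold or more, 5 HOX genes and 4 PRC2-silenced genes higher at 1.5-fold. A minimum mean of 50 counts gave 635 higher at 1.5-fold or more, 246 higher and 110 lower at 2-fold or more, and 3 HOX and 5 PRC2-silenced genes higher at 1.5-fold, since it tests fewer weakly expressed genes. The cause of the other differences was not tested. Of the named genes, 41 lost their call with DESeq2 and 27 in the authors' deposited table. With 1 library left out in turn, edgeR gave 2277 to 2389 higher and 2328 to 2477 lower genes, with the lone library assumed to vary like the other group. Replicate numbers did not pair the libraries: deviations of same-numbered libraries had a correlation of -0.0237 across 9860 genes. A fit with the replicate number as a block gave 2724 higher and 2703 lower genes and EZH2 at -2.66, and it ended the calls of GGPS1, HOXA4 and NDUFA1. With 2 libraries a group, genes under about 50 counts have wide errors, and their fold changes are the least certain.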

Other observations

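Some gene families not covered by the lists above were picked after their values had been seen, so their counts are descriptions. Over all genes tested 19.5% rose and 19.3% fell, and 7.21% rose by at least 1.5-fold. Some members that rose, among them COL11A2, SEMA3G and SEMA5B, passed the filter on low counts only through the shEZH2 libraries. Such members could enter only as increases. Of 22 collagen genes tested 10 rose and 2 fell, and 9 rose by at least 1.5-fold. COL2A1, the collagen of cartilage, had 5034 and 4984 normalized counts with shEZH2 and 935 and 944 with shControl, at 2.41 (SE 0.03, edgeR adjusted p = 1.33e-16). COL14A1, a fibril-associated collagen, had 8891 and 8891 normalized counts with shEZH2 and 4172 and 4373 with shControl, at 1.06 (SE 0.03, edgeR adjusted p = 4.76e-14), and COL9A3, a chain of type IX collagen, had 146 and 153 normalized counts with shEZH2 and 33.8 and 27.8 with shControl. In all 3 both shEZH2 libraries lay above both controls, whereas COL6A1 fell, at -1.12 (SE 0.16, edgeR adjusted p = 4.61e-05). All 3 trefoil factors, small peptides secreted with mucus in the gut, rose. TFF3 had 1802 and 1805 normalized counts with shEZH2 and 397 and 388 with shControl, at 2.20 (SE 0.05, edgeR adjusted p = 1.93e-14). TFF2 and TFF1 were at 1.35 (SE 0.07) and 2.38 (SE 0.16).

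Among 16 semaphorins, guidance molecules first known from axons, 8 rose and 1 fell. SEMA6A had 539.7 and 501 normalized counts with shEZH2 and 183 and 197 with shControl, at 1.45 (SE 0.08, edgeR adjusted p = 1.11e-09), and SEMA3C had 145 and 178 normalized counts with shEZH2 and 16.9 and 31.2 with shControl, at 2.77 (SE 0.22, edgeR adjusted p = 5.40e-08). Of 38 protocadherins 9 rose and 1 fell, and the share that rose was near the 19.5% of all genes tested. Most belong to clusters of near-identical isoforms whose reads the authors' counting could split. PCDH20, which lies outside those clusters, had 106 and 99.2 normalized counts with shEZH2 and 32.8 and 21.1 with shControl, at 1.91 (SE 0.22, edgeR adjusted p = 3.28e-06). Claudins, the tight junction proteins, went both ways, with CLDN4 at 1.56 (SE 0.21) and CLDN6 at -1.26 (SE 0.05). Of 32 histone cluster genes 15 rose and 1 fell. HIST1H2BD had 1151 and 1131 normalized counts with shEZH2 and 558 and 589 with shControl, at 1.00 (SE 0.05, edgeR adjusted p = 3.46e-10), and HIST1H2BK was at 0.42 (SE 0.04). Copies of these genes are near-identical, and their values are uncertain.

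The remaining lists are given here as higher and lower counts at an adjusted p under 0.05, beside 19.5% higher and 19.3% lower of all genes tested. Fatty acid oxidation had 5 and 4 of 18, led by PPARA at 0.55 among genes averaging 100 or more. Genes of the LXR axis, which answers excess cholesterol, had 3 and 3 of 8. Xenobiotic metabolism had 2 and 6 of 14, with the efflux pump ABCB1 at 0.81 and the sulfotransferase SULT2A1 at -0.96. Sugar metabolism had 6 and 5 of 22, with the transporters SLC2A1 at 0.75 and SLC2A2 at -1.48. Hypoxia genes had 7 and 3 of 14, with the collagen-crosslinking enzyme LOX at 1.41. Genes of the unfolded protein response had 4 and 6 of 19, with XBP1 at -0.53. Targets of p53 had 6 and 6 of 21, with SESN1 at -0.95. Interferon-stimulated genes had 2 and 3 of 17, with IFI6 at 1.23, and MHC class I presentation had 3 and 0 of 14, with HLA-C at 1.22. Immediate early genes had 2 and 8 of 17, with DUSP1 at -0.61. Lysosome genes had 6 and 7 of 24, with LAMP2 at -0.96. Nuclear-encoded respiratory chain genes had 9 and 6 of 34, ribosome biogenesis genes 3 and 6 of 22, and neither list had a member past 1.5-fold. Metallothioneins, near-identical copies, had 1 and 6 of 7. Cholangiocyte markers had 2 and 3 of 7. Housekeeping genes had 6 and 4 of 15, none past 1.5-fold, with ACTB at -0.13 and GAPDH at 0.00.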
